A study of Mus musculus with 14 samples.

Results

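The mitochondrial ribosomal protein genes were taken as the genes whose symbol is Mrpl or Mrps followed by a number and, in some, a letter. Of 54532 genes counted, 78 had such a symbol, 49 of them named for the large subunit (*Mrpl*) and 29 for the small subunit (*Mrps*). All 78 were found under the same gene identifier in the iMEF and the liver counts, so that senescent samples could be set against control samples in both tissues. The mitochondrial ribosome makes the few proteins that the mitochondrial genome encodes, all of them subunits of the respiratory chain and ATP synthase. Its ribosomal RNA comes from mitochondrial DNA, but its proteins are encoded in the nucleus, made in the cytosol and imported, so a working ribosome needs the products of both genomes. Some of these proteins have bacterial homologues and others arose only in mitochondria. Liver is a tissue rich in mitochondria.

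RNA was sequenced from 4 groups. Senescent iMEFs were mouse embryonic fibroblasts of the genotype Trf2F/F;Rosa-CreER, immortalized with SV40 large T antigen, that received 4-hydroxytamoxifen (4HT), which activates the ubiquitous Cre recombinase and so removes *Trf2* (*Terf2*), a component of the telomere-protecting shelterin complex. They were collected on day 7 (n = 3), and control iMEFs had the same genotype and large T antigen and received vehicle (n = 3). Senescent livers came from Trf2F/F;Rosa-mTmG mice given AAV8-Tbg-Cre, a virus whose TBG promoter drives Cre in hepatocytes, so that other liver cells keep *Trf2*, and control livers came from Rosa-mTmG mice given the same virus (n = 4 each), all collected 6 to 7 weeks later. In iMEFs the loss of *Trf2* and the effects of 4HT or of active Cre cannot be told apart, whereas both liver groups received Cre. The sources used here give neither the ages of the mice nor the number of embryos behind the iMEFs, and the p-values measure the spread between these samples, which the study calls biological replicates.

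The 14 libraries held 15364450 to 20177401 reads in genes, and levels are given as CPM, the reads of a gene relative to all reads in genes of that library, scaled by TMM factors within each tissue. *Terf2* averaged 0.250 ± 0.0482 CPM in senescent iMEFs, against 38.3 ± 0.775 CPM in control iMEFs (SD, n = 3 each), and 3.82 CPM in senescent livers, against 12.6 CPM in control livers. *Cdkn1a*, the cell cycle inhibitor p21, averaged 199 CPM in senescent iMEFs, against 44.9 CPM in control iMEFs, and 113 CPM in senescent livers, against 20.9 CPM in control livers. Senescent iMEFs replicate 3 stood apart: 2.32% of its reads came from the mitochondrial genome, against 0.853% and 0.644% in the other senescent iMEFs and 0.599% to 0.736% in control iMEFs, and results that rest on it are given with and without it. Of 8 fibroblast markers 7 were lower in senescent iMEFs, where their summed level was 9127 to 11337 CPM, against 20749 to 22650 CPM in control iMEFs, and the hepatocyte markers *Alb*, *Ttr* and *Hnf4a* were at 0 in all iMEFs. Hepatocyte markers summed to 88130 to 107102 CPM in senescent livers, against 79328 to 91165 CPM in control livers, and macrophage and Kupffer cell markers to 329 to 398 CPM in senescent livers, against 174 to 394 CPM in control livers. The proliferation markers *Mki67*, *Top2a*, *Ccnb1* and *Cdk1* summed to 1312 to 1439 CPM in senescent iMEFs, against 1268 to 1417 CPM in control iMEFs. None of these 4 genes passed the test in iMEFs. No gene of the 8 marker lists passed the test in livers. In such bulk samples fewer cells of a type and less RNA per cell cannot be told apart, and the part of these marker levels in the results below was not tested.

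Of the 78 genes, 77 were tested in both tissues. The exception was *Mrpl53*, which had 0 reads in all 14 libraries, and 88.0% of whose exon length lies under exons of *Ccdc142os* or *Gm42688*. The genes lie on 17 chromosomes, with the most on chromosome 11 (11 genes) and chromosome 17 (8 genes). The 5 pseudogenes named after members had 0 to 38 reads summed over the iMEF libraries and 0 to 85 over the livers, whereas the least covered member tested had 1765 and 968 reads. Exons of other genes, on either strand, cover over 25% of the exon length of 7 members. No source used here gives the strand setting of the counting, so reads of these genes cannot be told apart. Among them are *Mrps34* (77.8%, *Mapk8ip3* and *Nme3*), *Mrps25* (69.8%, *Nr2c2*), *Mrpl19* (36.0%, *Gcfc2*) and *Mrps18b* (30.5%, *Gm16279*).

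A start on the other strand within 1000 bases, with the pair running away from each other, was found for 18 of the 78 genes (23.1%), against 6.80% of 21918 protein coding genes. Promoter windows, the 250 bases before a RefSeq start, were at hand for 69 members and for 17491 protein coding genes. Letters known for binding ETS factors (CCGGAAG, either strand) were present in the windows of 18 members (26.1%), against 10.2% of all. The letters bound by NRF1, a transcription factor known for regulating nuclear genes of mitochondria (either strand, the capitals in the window of *Mrpl9*), were in 3 members (4.35%), against 1.21%. The GC box (GGGCGG) was about as frequent in members as in all genes, at 47.8% and 45.8%, and so was the E-box (CACGTG), at 7.25% and 7.61%. These matches are descriptions of the letters and not binding sites. The windows of 4 genes are shown, 5′ to 3′ on the strand of the gene, with ETS or NRF1 letters in capitals. *Mrps21* and *Mrpl41* are among the genes lowest in senescent iMEFs relative to controls and hold neither motif, *Mrps22* was higher in senescent iMEFs and holds the ETS letters, and *Mrpl9*, which did not pass the test, holds the NRF1 letters. The higher genes *Mrpl33*, *Mrpl1*, *Mrps6* and *Mrps10* also hold neither motif. Of 17 tested members with the ETS letters 1 was higher and 1 lower in iMEFs, and of 51 without them 7 and 7. Of all genes tested 18.6% were higher and 21.2% lower. The windows are from RefSeq on GRCm38.p6, at chr3:95871515-95871764 (minus strand) for *Mrps21*, chr2:24975099-24975348 (minus) for *Mrpl41*, chr9:98601680-98601929 (minus) for *Mrps22* and chr3:94443086-94443335 (plus) for *Mrpl9*.
Mrps21: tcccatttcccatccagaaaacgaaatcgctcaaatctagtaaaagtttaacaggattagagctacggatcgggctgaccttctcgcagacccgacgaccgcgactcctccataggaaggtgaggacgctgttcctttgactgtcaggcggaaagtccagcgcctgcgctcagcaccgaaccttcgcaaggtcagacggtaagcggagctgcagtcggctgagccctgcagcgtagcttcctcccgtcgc
Mrpl41: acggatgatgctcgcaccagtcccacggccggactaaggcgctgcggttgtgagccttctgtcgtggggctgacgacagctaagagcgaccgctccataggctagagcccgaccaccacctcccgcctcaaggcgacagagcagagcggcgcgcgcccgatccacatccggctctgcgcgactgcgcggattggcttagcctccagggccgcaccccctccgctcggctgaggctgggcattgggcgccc
Mrps22: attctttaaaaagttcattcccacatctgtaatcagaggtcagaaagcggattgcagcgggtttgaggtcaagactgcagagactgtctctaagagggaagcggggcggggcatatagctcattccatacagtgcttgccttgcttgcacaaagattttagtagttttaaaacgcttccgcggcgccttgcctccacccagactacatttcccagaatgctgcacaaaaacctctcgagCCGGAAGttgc
Mrpl9: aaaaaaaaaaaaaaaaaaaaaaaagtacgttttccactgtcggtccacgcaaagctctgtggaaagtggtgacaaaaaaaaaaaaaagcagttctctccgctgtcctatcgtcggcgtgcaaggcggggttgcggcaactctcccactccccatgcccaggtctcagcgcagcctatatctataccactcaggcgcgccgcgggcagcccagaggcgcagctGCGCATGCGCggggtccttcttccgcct

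In senescent iMEFs most mitochondrial ribosomal protein genes kept a level close to that of control iMEFs, and those that changed went both ways. Of 77 members, 9 had a higher level, 10 a lower level and 58 missed an adjusted p of 0.05 (edgeR's quasi-likelihood test, Benjamini-Hochberg adjustment over all genes tested). That is 24.7% of the members, against 39.8% of all 13561 genes tested (18.6% higher and 21.2% lower). The changes were small: log2 fold changes ran from -0.88 to 0.53, no member that passed had changed by more than 1, and the median absolute log2 fold change was 0.16, against 0.28 over all genes. The median was -0.07 over the members and 0.00 over all genes. The 95% confidence interval lay within 0.58 on the log2 scale of no change for 63 members (81.8%), against 49.9% of all genes. At an unadjusted p of 0.05, 28 members passed, 12 higher and 16 lower, against 48.1% of all genes. Every senescent library lay above every control library for 17 members (22.1%, against 24.2% of all genes) and below for 16 (20.8%, against 26.4%).

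Single libraries moved these counts. Without senescent iMEFs replicate 3, 14 members were higher and 9 lower. Without control iMEFs replicate 3, 11 were higher and 17 lower, and without control iMEFs replicate 1 or 2, 4 were higher and 5 or 6 lower. Without senescent iMEFs replicate 2, 5 were higher and 13 lower. Calls over all genes moved as well, from 2522 higher and 2878 lower of 13561 with every iMEF library. Without senescent replicate 3 they were 2790 and 3117 of 13823, and without senescent replicate 2 they were 2241 and 2619 of 13950. Without control replicate 3 they were 2136 and 2706 of 13932. Without control replicate 1 or 2 they were 1766 and 2213 of 13914 or 1624 and 2168 of 13912. Of the 19 members that passed, 9 passed in all 13 alternatives tried, and all 19 kept their direction in them. The 9 were *Mrps21*, *Mrpl14*, *Mrps34*, *Mrpl41* and *Mrpl48* among the lower genes and *Mrpl33*, *Mrpl1*, *Mrps6* and *Mrps10* among the higher ones. The alternatives include an adjusted p of 0.01 in the same fit, which only genes below 0.01 there can pass.

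**Figure D1:**
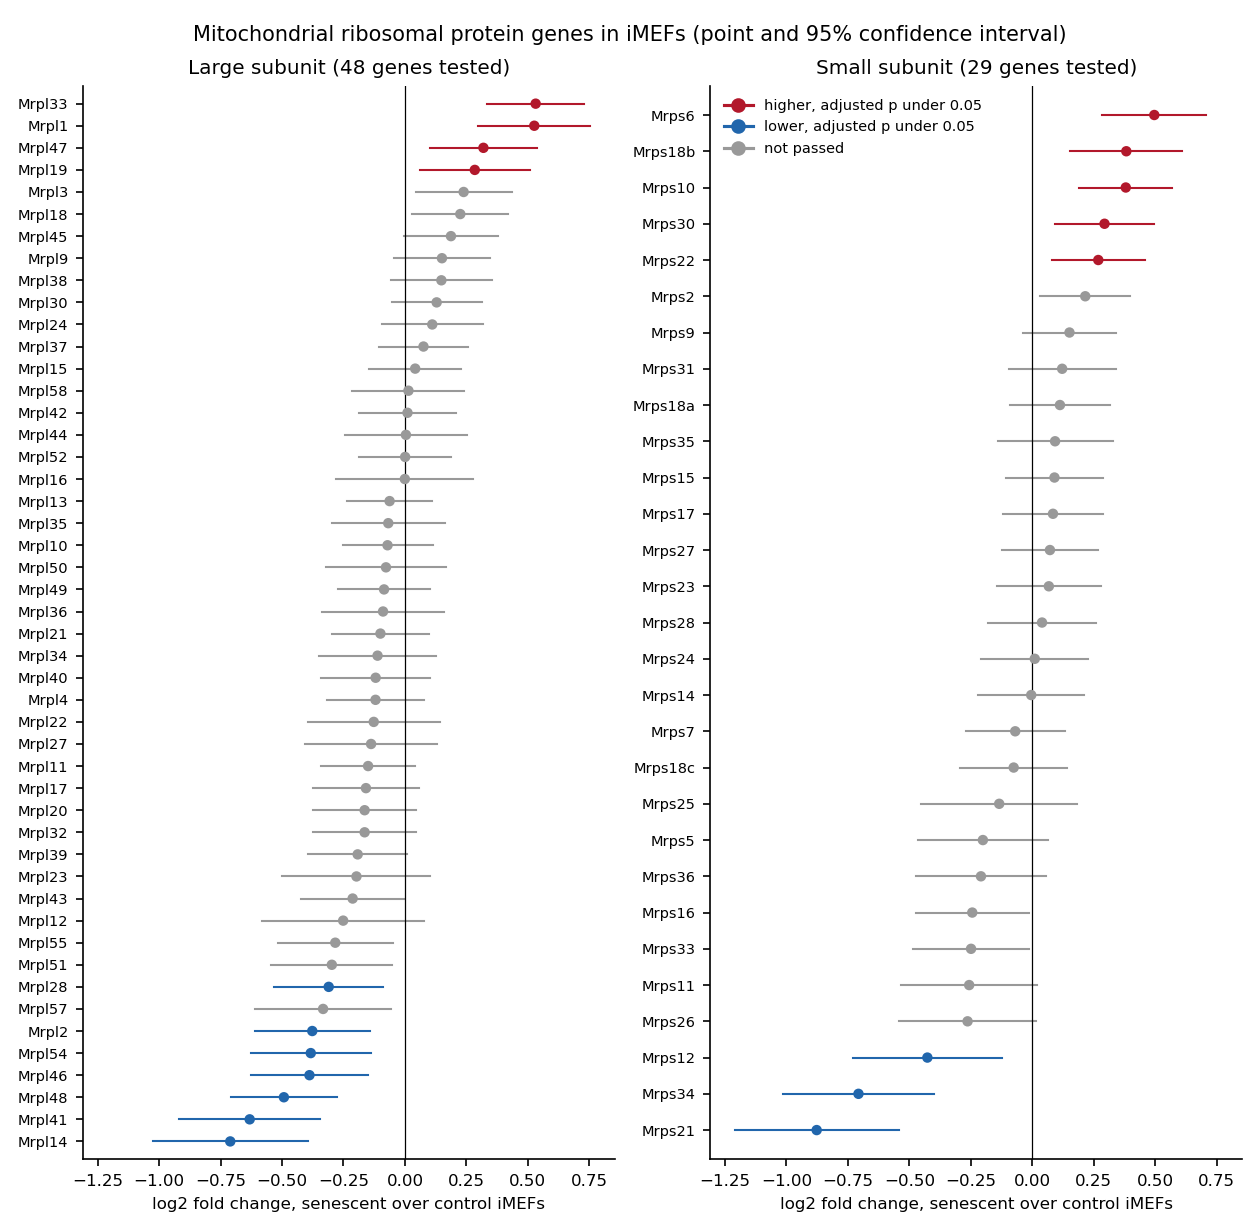
Log2 fold change of senescent over control iMEFs for each of the 77 members tested, with large subunit genes on the left and small subunit genes on the right. Points are fitted values and lines 95% confidence intervals (n = 3 libraries each). Most intervals cross 0, with 9 genes higher (red) and 10 lower (blue) at an adjusted p of 0.05, from 0.53 for *Mrpl33* to -0.88 for *Mrps21*.

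Among the genes of the large subunit 4 were higher and 7 lower of 48 tested, with a median log2 fold change of -0.09 and 17 positive values. Among those of the small subunit 5 were higher and 3 lower of 29, with a median of 0.04 and 16 positive values. In the human mitochondrial ribosome the proteins of MRPS18A and MRPS30 sit in the large subunit despite their names, and with these 2 genes counted there, 5 were higher and 7 lower of 50, and 4 were higher and 3 lower of 27. The difference between the subunits was not tested.

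The largest fall was that of the small subunit gene *Mrps21* (chromosome 3, 95862634 to 95871519, GRCm38), whose protein is a homologue of a bacterial small subunit protein. It had 24.7, 18.8 and 18.8 CPM in senescent iMEFs, against 41.2, 44.0 and 29.4 CPM in control iMEFs. The groups did not overlap, and control replicate 3 was the lowest of the controls. The fitted log2 difference was -0.88 ± 0.15 (SE; edgeR, adjusted p = 7.43e-04), a level 0.544 times that of the controls. *Mrpl14* (chromosome 17, 45686322 to 45698495) encodes a large subunit protein with a bacterial homologue that faces the small subunit. It had 18, 17.7 and 13.0 CPM in senescent iMEFs, against 31.0, 25.2 and 23.5 CPM in control iMEFs. It was lower in every senescent library, with a log2 fold change of -0.71 ± 0.15 (SE; adjusted p = 0.00205). *Mrps34* (chromosome 17, 24895116 to 24897502) encodes a small subunit protein without a bacterial homologue and had 14.7, 10.8 and 11.6 CPM in senescent iMEFs, against 22.1, 21.3 and 17.4 CPM in control iMEFs. The log2 fold change was -0.71 ± 0.14 (SE; adjusted p = 0.00182). Most of its exon length is shared with other genes, as given above. *Mrpl41* (chromosome 2, 24974117 to 24975098), a large subunit gene, had 13.9, 13.1 and 13.0 CPM in senescent iMEFs, against 23.3, 21.9 and 16.8 CPM in control iMEFs. The log2 fold change was -0.63 ± 0.13 (SE; adjusted p = 0.00243), and the controls spread more widely than the senescent libraries.

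The other genes that fell did so by less. *Mrpl48* had 19.3, 20.3 and 19.3 CPM in senescent iMEFs, against 27.6, 29.6 and 25.6 CPM in control iMEFs, a log2 fold change of -0.49 (adjusted p = 0.00200). *Mrps12*, whose bacterial homologue is part of the decoding center, had a log2 fold change of -0.43, with senescent replicate 2, at 20.2 CPM, above control replicate 3, at 19.4 CPM. *Mrpl46*, *Mrpl54*, *Mrpl2* and *Mrpl28*, all of the large subunit, had log2 fold changes of -0.39, -0.38, -0.38 and -0.31 and no overlap between the groups. *Mrpl2* has a bacterial homologue close to the site of peptide bond formation. Adjusted p was 0.0141 to 0.0289 for these 5 genes, so none could pass the alternative of 0.01. Each also lost the call in at least 1 other alternative.

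The largest rise was that of *Mrpl33* (chromosome 5, 31596935 to 31664384), which encodes a short protein of the large subunit with a bacterial homologue. It had 39.7, 45.6 and 42.9 CPM in senescent iMEFs, against 28.4, 30.1 and 30.2 CPM in control iMEFs, with no overlap. The log2 fold change was 0.53 ± 0.09 (SE; adjusted p = 5.88e-04), a level 1.45 times that of the controls. *Mrpl1* (chromosome 5, 96209493 to 96266727), whose bacterial homologue forms the flexible stalk at the exit site, had 48.7, 53.0 and 48.9 CPM in senescent iMEFs, against 29.9, 35.1 and 39.6 CPM in control iMEFs. It rose by 0.53 ± 0.11 on the log2 scale (SE; adjusted p = 0.00183), and control replicate 3 was the control nearest to the senescent libraries. *Mrps6* (chromosome 16, 92058270 to 92112227), a small subunit gene with a bacterial homologue, had 58.9, 66.9 and 52.9 CPM in senescent iMEFs, against 41.1, 42.6 and 42.9 CPM in control iMEFs, a rise of 0.50 ± 0.10 (log2, SE; adjusted p = 0.00158). *Mrps10* (chromosome 17, 47368887 to 47381417), also with a bacterial homologue, had 47.2, 49.3 and 52.5 CPM in senescent iMEFs, against 36.8, 37.2 and 40.4 CPM in control iMEFs, a rise of 0.38 ± 0.09 (log2, SE; adjusted p = 0.00420). The other genes that rose were *Mrps18b*, *Mrpl47*, *Mrps30*, *Mrpl19* and *Mrps22*, with log2 fold changes of 0.38, 0.32, 0.29, 0.28 and 0.27. Adjusted p was 0.0123 to 0.0442 for these 5, so none could pass the alternative of 0.01, and none of them had overlapping groups. Each also lost the call in at least 1 other alternative.

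*Mrps18a*, *Mrps18b* and *Mrps18c* are paralogues of a single bacterial small subunit protein, and 1 of the 3 passed the test. *Mrps18b* had 35.6, 35.2 and 36.2 CPM in senescent iMEFs, against 24.2, 26.4 and 31.4 CPM in control iMEFs, and rose. *Mrps18a* and *Mrps18c* had log2 fold changes of 0.11 (adjusted p = 0.365) and -0.08 (adjusted p = 0.576) and overlapping groups. *Mrpl12*, a stalk protein also known to bind the mitochondrial RNA polymerase, had 26.4, 24.9 and 22.3 CPM in senescent iMEFs, against 33.2, 32.9 and 21.4 CPM in control iMEFs. Control replicate 3 lay below all senescent libraries, and the log2 fold change of -0.25 did not pass (adjusted p = 0.208).

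Summed over a subunit, the levels of the groups overlapped. The large subunit genes summed to 1905, 2006 and 1782 CPM in senescent iMEFs, against 1988, 1987 and 1908 CPM in control iMEFs, a ratio of 0.968. Senescent replicate 3 was the lowest and senescent replicate 2 the highest of all 6. The small subunit genes summed to 996, 1011 and 952 CPM in senescent iMEFs, against 997, 992 and 924 CPM in control iMEFs, a ratio of 1.02. The sum of the large over that of the small subunit was 1.91, 1.99 and 1.87 in senescent iMEFs, against 1.99, 2.0 and 2.06 in control iMEFs, so that the groups did not overlap but senescent replicate 2 came close to control replicate 1. Without senescent iMEFs replicate 3 the ratio of the large subunit sums was 0.997, and with CPM of the raw library size the ratio of the small subunit sums was 1.05.

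**Figure D2:**
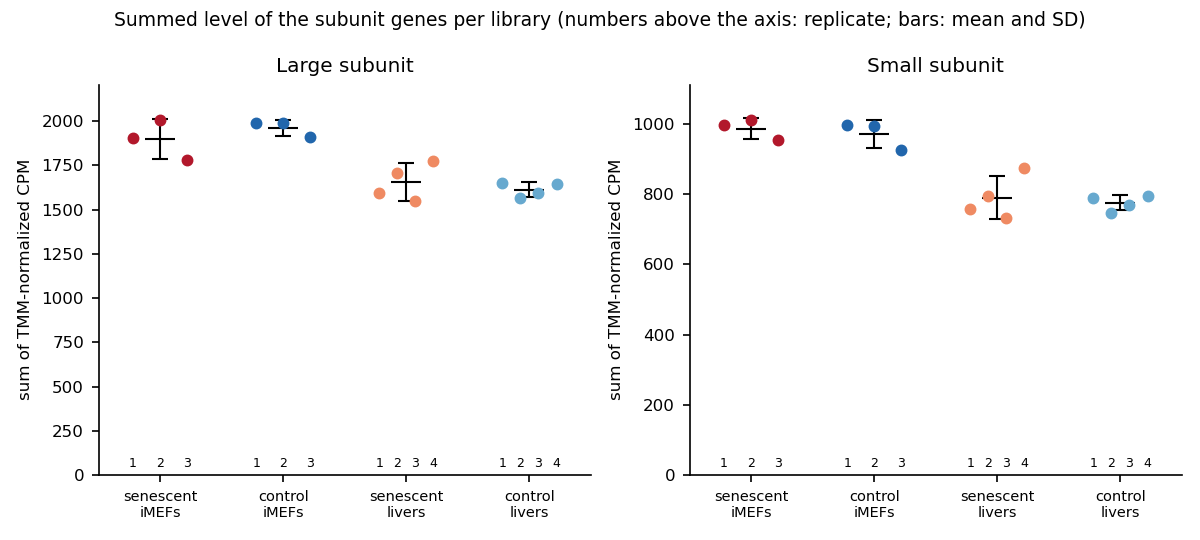
Summed level of the large (left) and small (right) subunit genes in each library, in TMM-normalized CPM, with the mean and SD of each group. The senescent points lie among or around the control points in both tissues: 1782 to 2006 CPM against 1908 to 1988 CPM for the large subunit in iMEFs, and 1549 to 1777 CPM against 1566 to 1650 CPM in livers.

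The calls in iMEFs were counted by base composition, for the members and for all other genes. The members were split into 3 bins by the GC content of their principal transcript, and other genes within the same limits are given beside them. In the bin with the lowest GC content (39.6% to 48.2%), 6 of 26 members were higher and 1, *Mrpl48*, was lower, against 23.9% higher and 15.4% lower of 4755 other genes. In the bin with the highest GC content (52.6% to 60.6%), 2 of 26 were higher and 8 lower, against 13.9% and 27.0% of 4551 other genes. In the middle bin 1 was higher and 1 lower of 25, against 16.6% and 21.6% of 3058 other genes. Across the 77 members Spearman's rho between log2 fold change and GC content was -0.24, and across all 13561 genes it was -0.20, where all points share the same 6 libraries and genes are not independent replicates. By length, 3 were higher and 7 lower of the 26 shortest transcripts, against 12.4% higher and 20.4% lower of 1054 other genes in that range. Of the 25 in the middle range of length, 2 were higher and 2 lower, against 12.8% and 24.1% of 2444 other genes. Of the 26 longest, 4 were higher and 1 lower, against 20.8% and 20.4% of 8937 other genes.

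With offsets that remove each library's trend with GC content and transcript length, an alternative chosen after seeing the data, 13 members were higher and 12 lower, and 12 of these 25 were among the 19 that had passed without offsets. Over all genes 2768 were higher and 2856 lower of 13550 with offsets, against 2522 and 2878 of 13561 without. The 13 that passed only with offsets were *Mrpl38*, *Mrpl18*, *Mrps18a*, *Mrps2*, *Mrpl9*, *Mrpl45* and *Mrps15*, which were higher, and *Mrpl57*, *Mrpl51*, *Mrpl32*, *Mrps33*, *Mrps16* and *Mrpl17*, which were lower. The largest of these log2 fold changes each way were 0.36 for *Mrpl38*, against 0.15 without offsets, and -0.45 for *Mrpl57*, against -0.33. In turn *Mrps12*, *Mrpl54*, *Mrpl2*, *Mrpl28*, *Mrps30*, *Mrpl47* and *Mrpl19* no longer passed. Their directions held, and *Mrpl47* and *Mrpl19* had log2 fold changes of 0.24 each with offsets (adjusted p = 0.0507 and 0.0605), against 0.32 and 0.28 without. *Mrps30* had 0.20 against 0.29, *Mrps12* -0.29 against -0.43 and *Mrpl2* -0.21 against -0.38, while *Mrpl54* had -0.18 against -0.38 and *Mrpl28* -0.13 against -0.31. *Mrps21* then had a log2 fold change of -0.82, *Mrpl14* of -0.54 and *Mrps34* of -0.47, while *Mrps6* had 0.59 and *Mrpl33* had 0.49, all of which passed. The part of base composition in these changes was not tested further.

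**Figure D3:**
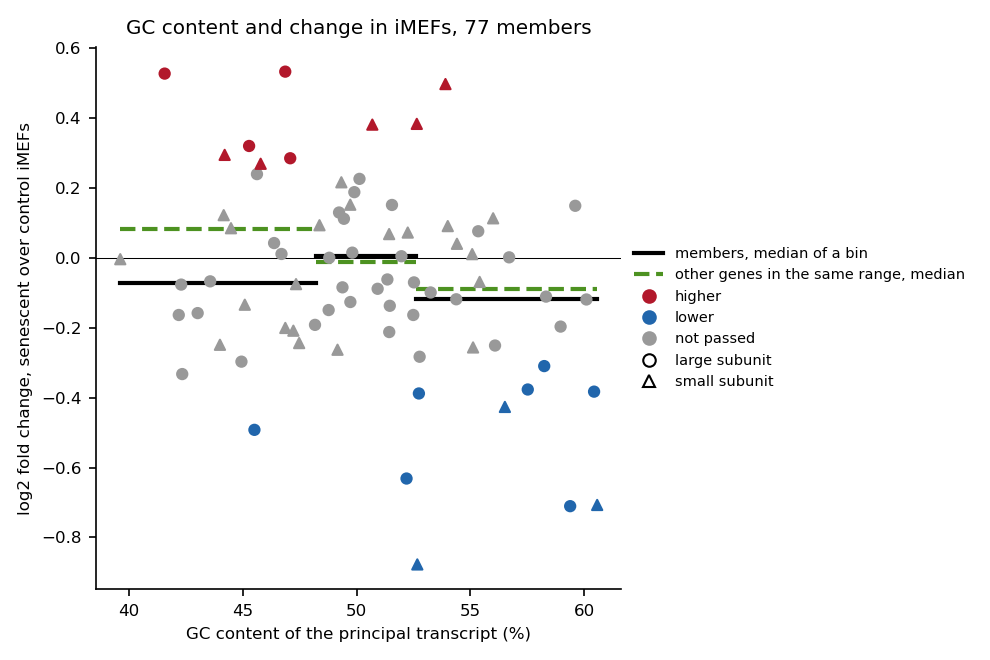
GC content of the principal transcript (%) against the log2 fold change of senescent over control iMEFs for the 77 members. Black bars are medians of the members in each of 3 bins of GC content, and dashed green bars medians of the other genes in the same range. Of the 10 genes lower in senescent iMEFs 8 lie in the highest bin, where 27.0% of other genes were lower, and of the 9 genes higher 6 lie in the lowest, where 23.9% of other genes were higher.

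Genes with a divergent neighbour did not all move with it. All 18 pairs were tested in iMEFs, and 10 had log2 fold changes of the same sign. Of the 18 partners 7 passed the test, 5 higher and 2 lower, and of the 18 members 6 passed, against 39.8% of all genes. Whether pairs move together more than other genes was not tested. In 5 pairs both genes passed the test. *Mrpl54* and *Apba3*, whose starts lie 26 bases apart, were both lower (-0.38 and -0.39), as were *Mrpl2* and *Klc4* (-0.38 and -0.47), and *Mrps18b* and *Ppp1r10* were both higher (0.38 and 0.35). *Mrps34* fell while *Eme2*, 29 bases away, rose (-0.71 and 0.56), and *Mrpl41* fell while *Pnpla7*, 935 bases away, rose (-0.63 and 0.59).

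In livers no mitochondrial ribosomal protein gene passed the test. With edgeR 0 of 77 members passed an adjusted p of 0.05, against 0.343% of all 14270 genes tested (0.308% higher and 0.0350% lower). At an unadjusted p of 0.05, 3 passed (2 higher and 1 lower of 77), against 7.54% of all genes. That count was 7, all higher, without senescent livers replicate 3, 2 without control livers replicate 4, 1 without senescent livers replicate 4, and 0 without any of the other 5 livers in turn. Over all genes 592 were higher and 484 lower of 14270 at that p with every liver. Leaving out senescent livers replicate 3 gave 672 and 549 of 14567, control livers replicate 4 gave 805 and 587 of 14503, and senescent livers replicate 4 gave 513 and 420 of 14532. The other 5 fits gave 510 to 669 higher and 342 to 647 lower, of 14526 to 14604. DESeq2 and limma-voom also gave 0 at the adjusted threshold, and 2 each at the unadjusted one. Over all genes the unadjusted threshold gave 710 higher and 577 lower of 19819 with DESeq2, and 609 and 505 of 14270 with limma-voom. Log2 fold changes ran from -0.21 to 0.33 with a median of 0.02, against 0.00 over all genes. The 95% confidence interval lay within 0.58 of no change for 75 of the 77, against 58.0% of all genes. It lay within 1 for all 77, against 11465 of all 14270 genes. No member had every senescent liver above every control liver (2.55% of all genes did), and 1 member had every senescent liver below (1.96% of all genes).

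Of these genes *Mrpl54* had the smallest p. It had 28.2, 30.8, 20.2 and 28.8 CPM in senescent livers, against 21.4, 21.1, 18.7 and 24.5 CPM in control livers, with senescent replicate 3 among the controls. The fitted log2 difference was 0.33 ± 0.14 (SE; edgeR, adjusted p = 0.607). *Mrps18a* had 25.6, 28.0, 26.2 and 29.6 CPM in senescent livers, against 31.5, 32.1, 33.5 and 29.7 CPM in control livers, and was the member whose groups did not overlap, although senescent replicate 4 and control replicate 4 were nearly equal. The fitted log2 difference was -0.21 ± 0.09 (SE; adjusted p = 0.622). *Mrpl34*, a small protein with a bacterial homologue, had 37.3, 40.1, 27.2 and 40.1 CPM in senescent livers, against 31.4, 31.1, 30.6 and 25.5 CPM in control livers, a log2 fold change of 0.29 (adjusted p = 0.659). *Mrps7*, *Mrpl57* and *Mrps22* followed, with log2 fold changes of 0.18, 0.17 and 0.18 (adjusted p = 0.736 to 0.753).

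The sums of both subunits overlapped between the liver groups too. Large subunit genes summed to 1591, 1708, 1549 and 1777 CPM in senescent livers, against 1650, 1566, 1593 and 1643 CPM in control livers, a ratio of 1.03. Small subunit genes summed to 758, 795, 731 and 873 CPM in senescent livers, against 789, 747, 769 and 795 CPM in control livers, a ratio of 1.02. Senescent replicate 4 was the highest and senescent replicate 3 the lowest of the 8 in both sums. In senescent replicate 4, 37 of 48 large subunit genes and 23 of 29 small subunit genes lay above the mean of the controls, against 19 and 9 in senescent replicate 3. Without senescent replicate 4 the ratios were 1.0 and 0.982.

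The size of the change in iMEFs and in livers was compared in 1 model over all 14 libraries, in which a positive value means a larger log2 fold change in iMEFs. Of 77 members 8 differed (adjusted p of 0.05, edgeR), 3 positive and 5 negative, which is 10.4% against 17.1% of the 11693 genes tested in both tissues (7.41% positive and 9.69% negative). The largest difference was that of *Mrps21*, -1.06 (95% confidence interval -1.52 to -0.60, adjusted p = 0.00309). It had 34.1, 39.3, 28.5 and 43.0 CPM in senescent livers, against 30.1, 34.2, 32.8 and 30.4 CPM in control livers, where the groups overlapped. *Mrpl14* differed by -0.80 (interval -1.19 to -0.41), with 53.5, 53.3, 45.4 and 58.6 CPM in senescent livers, against 51.9, 49.8, 43.2 and 52.4 CPM in control livers. *Mrps34* differed by -0.78, *Mrpl54* by -0.71 and *Mrpl41* by -0.56, and on the positive side *Mrpl47* by 0.48, *Mrpl1* by 0.47 and *Mrps10* by 0.42, with adjusted p of 0.0129 to 0.0432. The count fell to 3 without control iMEFs replicate 1 or 2, to 4 without control livers replicate 2, and to 5 without control livers replicate 1, senescent livers replicate 2 or senescent iMEFs replicate 1 or 3. Over all 11693 genes 867 were positive and 1133 negative with every library. Without control iMEFs replicate 1 or 2 these were 541 and 801 or 520 and 740. Without control livers replicate 2 they were 721 and 1013, and without control livers replicate 1 they were 693 and 991. Without senescent livers replicate 2 they were 714 and 991, and without senescent iMEFs replicate 1 or 3 they were 646 and 862 or 755 and 982. *Mrps21* and *Mrpl14* passed in all 20 alternatives, and *Mrps34* lost the call only at the adjusted p of 0.01, where the outcome follows from the main fit. Of the 19 members called in iMEFs the other 11 did not pass this test, which does not show that they changed alike in the tissues.

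**Figure D4:**
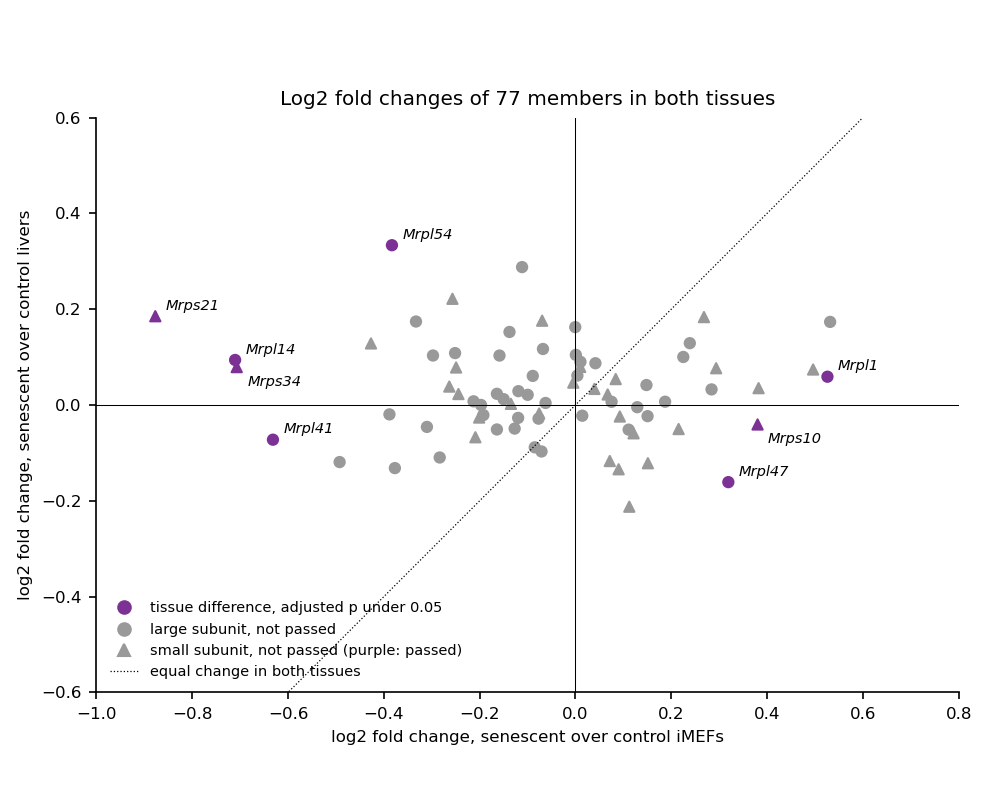
Log2 fold change of senescent over control iMEFs (horizontal) and of senescent over control livers (vertical) for 77 members, as circles for the large and triangles for the small subunit. Purple marks the 8 genes whose changes differed between the tissues. The points spread from -0.88 to 0.53 along the iMEF axis and from -0.21 to 0.33 along the liver axis.

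**Figure D5:**
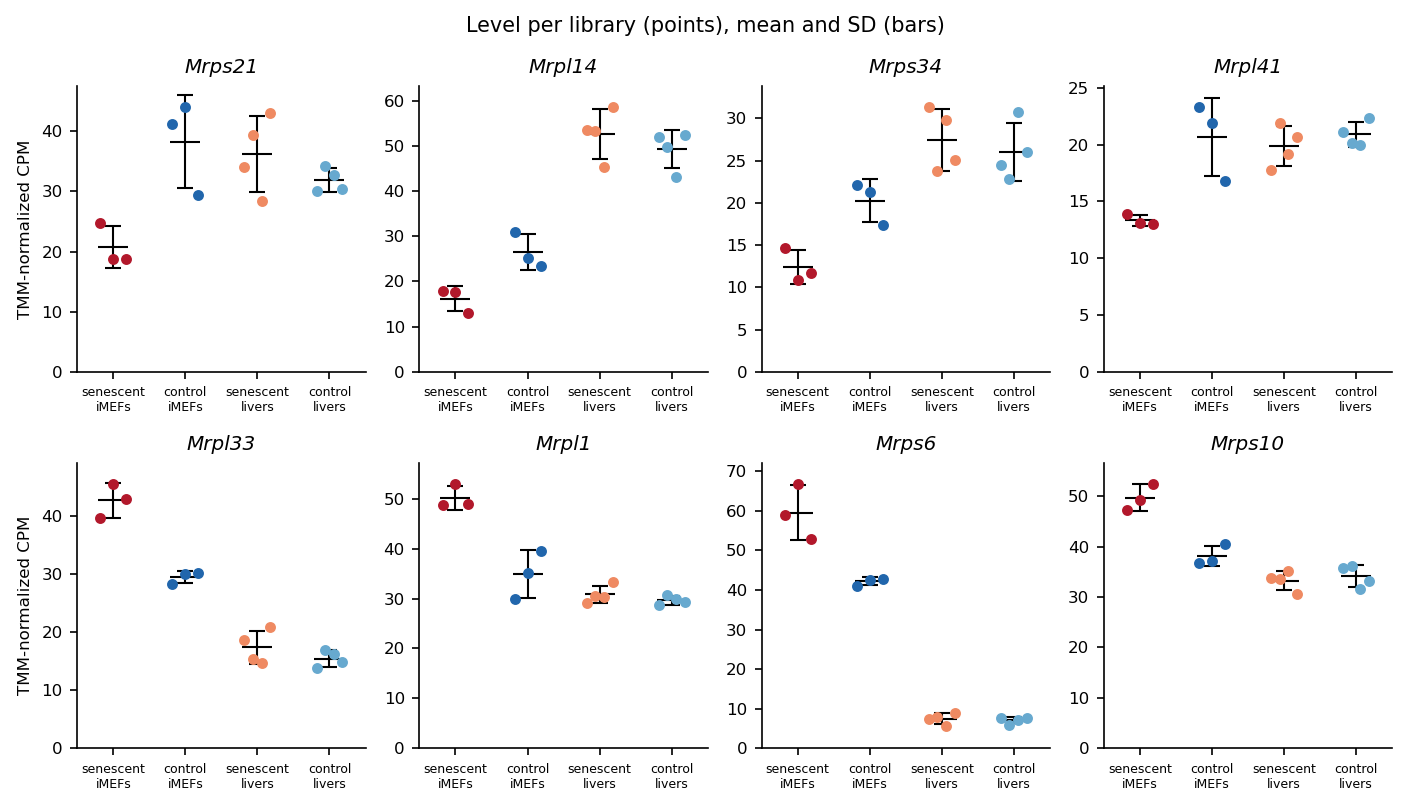
Level of 8 members in each library (points), in TMM-normalized CPM, with the mean and SD of each group. The upper genes were lower and the lower genes higher in senescent than in control iMEFs with no overlap, while the senescent and control livers overlap for all 8.

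Levels across members differed far more than levels between conditions. Per kilobase of the principal transcript, control iMEFs ran from 4.36 CPM for *Mrps25* to 98.4 CPM for *Mrpl52*, a 22.6-fold range, and control livers from 2.09 CPM for *Mrps25* to 103 CPM for *Mrpl52*, a 49.1-fold range. After *Mrpl52* came *Mrpl42*, *Mrps21*, *Mrpl54* and *Mrpl28* in control iMEFs (83.8, 78.3, 74.2 and 72.7 CPM per kilobase) and *Mrpl14*, *Mrps21*, *Mrpl42* and *Mrpl30* in control livers (76.5, 65.3, 56.7 and 52.0). The lowest after *Mrps25* were *Mrpl47*, *Mrpl48*, *Mrpl19* and *Mrps35* in control iMEFs (5.20, 6.44, 6.45 and 7.38) and *Mrpl19*, *Mrpl47*, *Mrps26* and *Mrps30* in control livers (2.43, 3.49, 5.39 and 5.50). Exons of other genes cover 69.8% of the exon length of *Mrps25*, 36.0% of *Mrpl19* and 24.2% of *Mrpl47*. They cover 9.35% of *Mrps30*, 8.68% of *Mrpl48*, 0.184% of *Mrps26* and 0% of *Mrps35* and *Mrpl52*. Before division by length, mean CPM ran from 16.1 to 92.2 in control iMEFs and from 7.07 to 63.5 in control livers, a narrower range. The principal transcript has 418 bases for *Mrpl52* and 6073 for *Mrps25*, so length enters this order. The parts of length and of exon overlap in the levels per kilobase were not tested. The order was much alike in the tissues, with Spearman's rho of 0.80 over 77 members, which share gene lengths and base composition.

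Mean CPM was lower in control livers than in control iMEFs for 55 of the 77 members, with a median ratio of 0.813. Each tissue was scaled apart and no test was made. The median level of the members was 34.9 CPM in control iMEFs and 29.6 CPM in control livers. Over all genes tested in each tissue it was 28.8 and 14.7 CPM, a larger fall than that of the members. *Mrps6* stood out with 7.7, 6.0, 7.1 and 7.5 CPM in control livers, against 41.1, 42.6 and 42.9 CPM in control iMEFs. *Mrpl3*, a core protein of the large subunit with a bacterial homologue, had the highest mean CPM of the members in control iMEFs, at 92.2 CPM, and 23.2 CPM in control livers. It had 103, 119 and 105 CPM in senescent iMEFs, against 85.2, 91.0 and 101 CPM in control iMEFs, all senescent libraries above the controls but short of the threshold (log2 fold change 0.24, adjusted p = 0.0507). *Mrpl12* went the other way, with 62.4, 52.1, 54.3 and 59.8 CPM in control livers, against 33.2, 32.9 and 21.4 CPM in control iMEFs.

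Genes that work beside the mitochondrial ribosomal proteins were counted in the same fits. Of 5 mitochondrial ribosomal proteins with other names, *Ptcd3* was higher and *Gadd45gip1* lower in senescent iMEFs, and *Dap3*, *Aurkaip1* and *Chchd1* did not pass. *Ptcd3*, of the small subunit, had 132, 129 and 125 CPM in senescent iMEFs, against 83.4, 92.3 and 96.2 CPM in control iMEFs (log2 fold change 0.51). *Gadd45gip1*, of the large subunit, had 12.6, 11.9 and 9.23 CPM in senescent iMEFs, against 22.2, 21.4 and 14.1 CPM in control iMEFs (-0.78). Of 13 translation factors tested 3 were higher and 0 lower, namely *Guf1*, *Lrpprc* and *Gfm2*, and 10 did not pass. Of 27 assembly factors of the mitochondrial ribosome 7 were higher and 2 lower. *Fastkd2*, which binds the large ribosomal RNA, rose by 0.80, and *Gtpbp10* and *Dhx30* by 0.67 and 0.38, while *Rbfa* and *Malsu1* had log2 fold changes of -0.40 and -0.37. The *Malsu1* protein is known to bind that of *Mrpl14* during assembly. Of 20 genes that charge the tRNAs for this ribosome, namely aminoacyl-tRNA synthetases of mitochondria and *Gatb*, *Gatc* and *Qrsl1*, the subunits of an amidotransferase that completes glutaminyl-tRNA, 10 were higher and 2 lower, with a median log2 fold change of 0.31. The synthetase genes *Tars2* and *Iars2* had 0.47 and 0.45, the amidotransferase gene *Gatc* had 0.48, and the synthetase genes *Fars2* and *Lars2* had -0.48 and -0.26. Against the 39.8% of all genes called, these were 40.0%, 23.1%, 33.3% and 60.0% of the 4 lists, and in livers 0 genes of these 4 lists passed. Without control iMEFs replicate 2 the tRNA charging genes gave 5 higher and 1 lower, and without control iMEFs replicate 3 they gave 5 higher and 2 lower. The assembly factors gave 4 higher and 1 lower without control iMEFs replicate 1 and 5 higher and 0 lower without control iMEFs replicate 2. Calls over all genes fell too, from 2522 higher and 2878 lower of 13561 with every library. They were 1766 and 2213 of 13914 without control replicate 1 and 1624 and 2168 of 13912 without control replicate 2. Without control replicate 3 they were 2136 and 2706 of 13932.

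Reads of the RNA that the ribosome is built on were higher in senescent iMEFs with edgeR but not with DESeq2, and 1 library lay far above the rest. The 2 ribosomal RNAs summed to 274 CPM in control iMEFs and 791 CPM in control livers. The mitochondrially encoded protein genes summed to 6704 and 45313 CPM there. Whether such reads follow the amount of ribosomal RNA in the cells was not tested. *mt-Rnr1*, the small ribosomal RNA, had 101, 90.3 and 240 CPM in senescent iMEFs, against 62.8, 81.9 and 66.0 CPM in control iMEFs (log2 fold change 1.03, adjusted p = 0.0119). *mt-Rnr2*, the large one, had 291, 249 and 951 CPM in senescent iMEFs, against 178, 224 and 210 CPM in control iMEFs (1.28, adjusted p = 0.0169). Without senescent iMEFs replicate 3 the log2 fold changes of *mt-Rnr1* and *mt-Rnr2* were 0.46 and 0.42, and both passed, whereas 1 of them passed without control iMEFs replicate 1, and 0 passed without control iMEFs replicate 3 or with DESeq2. Of 12 mitochondrially encoded protein genes tested 5 were higher and 0 lower, with a median log2 fold change of 0.79. Of all genes tested in that fit 18.6% were higher and 21.2% lower. Without senescent iMEFs replicate 3 this median was 0.04 and 1 gene was higher, and 1 was higher too without control iMEFs replicate 1, 2 or 3, with DESeq2 and with limma-voom. In contrast, 7 were higher without senescent iMEFs replicate 1, 10 without senescent iMEFs replicate 2, and 11 of 13 with no filter on low counts. Over all genes 2790 were higher and 3117 lower of 13823 without senescent iMEFs replicate 3. These were 2101 and 2359 of 13890 without senescent iMEFs replicate 1 and 2241 and 2619 of 13950 without replicate 2. Leaving out control iMEFs replicate 1, 2 or 3 gave 1766 and 2213 of 13914, 1624 and 2168 of 13912 or 2136 and 2706 of 13932. DESeq2 gave 2396 and 2718 of 17399, limma-voom 2466 and 2892 of 13561, and the fit with no filter 2556 and 3073 of 24697. The sum of the mitochondrially encoded protein genes over that of the members was 2.71, 1.98 and 8.01 in senescent iMEFs, against 1.95, 2.38 and 2.54 in control iMEFs. Replicate 3 was thus the library with the highest mitochondrially encoded level and the lowest large subunit sum among the senescent iMEFs, and the part of one in the other was not tested. In livers this ratio was 17.1, 19.6, 22.3 and 14.2 in senescent livers, against 17.4, 19.3, 18.8 and 20.4 in control livers.

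The proteins of the cytosolic ribosome, which translates the messages of nuclear genes, were counted for comparison. Of 84 tested, 19 were higher and 8 lower in senescent iMEFs (32.1%, against 39.8% of all genes), with a median log2 fold change of 0.16. Without senescent iMEFs replicate 3, 50 were higher and 8 lower, and without control iMEFs replicate 2, 7 were higher and 6 lower. Over all genes these fits gave 2790 higher and 3117 lower of 13823, and 1624 higher and 2168 lower of 13912. In livers only *Rps27l*, a paralogue known as a p53 target, passed. It had 180, 194 and 172 CPM in senescent iMEFs, against 127, 113 and 126 CPM in control iMEFs (log2 fold change 0.58), and a log2 fold change of 0.57 in livers (adjusted p = 0.0302). *Rpl26* and *Rps27a* rose by 0.46 and 0.48 in iMEFs, and *Rpl23a*, *Rpl28* and *Rps28* fell by 1.05, 0.62 and 0.54. The sum of the cytosolic over that of the mitochondrial genes was 17.2, 17.9 and 16.1 in senescent iMEFs, all above the 15.3, 15.3 and 15.4 of control iMEFs, whereas it was 6.29, 6.40, 6.80 and 6.01 in senescent livers, against 6.24, 6.50, 6.47 and 6.01 in control livers. This difference between the 2 kinds of ribosome was not tested.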

How the data were processed

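RNA sequencing of 6 iMEF and 8 liver libraries was analysed. Per the labels and the submitters' processing notes, the authors aligned reads with STAR to mm10 and counted reads per gene with featureCounts. No source used here gives versions, annotation or strand setting. The deposited counts were used as they stand. The tables the authors normalized with DESeq2 were not used.

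Genes passing filterByExpr were tested with edgeR 4.0.16 in R 4.3.3 (TMM factors, quasi-likelihood test, Benjamini-Hochberg adjusted p of 0.05), each tissue apart, and for the tissue difference in 1 model over 14 libraries with the 11693 genes tested in both. Intervals are 95% confidence intervals of the fit. The scripts were tested on simulated data. Alternatives were RLE factors, DESeq2 1.42.0, limma-voom (limma 3.58.1), no filter on low counts, an adjusted p of 0.01, the replicate number as a block and leaving out each library. Offsets for GC content and length were added after seeing the data.

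The members and the lists of companion genes and markers were chosen with earlier results of these data known. Named genes were, in iMEFs, up to 10 members past the threshold each way, in livers the 6 with the smallest p, the 5 with the smallest p for the tissue difference, the 5 highest and 5 lowest per kilobase in the controls of each tissue, the *Mrps18* paralogues and *Mrpl12*, up to 3 genes each way of each companion list, and *Terf2* and *Cdkn1a*. *Mrpl3*, *Mrpl9*, the members called only with offsets, the genes paired with members, and the companion genes that did not pass were named after their values were seen. Gene positions, exon overlap, transcript length and GC content came from GENCODE M21 (GRCm38, the assembly of mm10), with the principal transcript of each gene for length and GC content, since the count files give no length. Promoter windows came from RefSeq (GRCm38.p6). With 15364450 to 20177401 reads a library and 3 or 4 libraries a group, precision is set by the spread between libraries, and no pair of replicates held identical counts.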

Additional observations from a re-analysis of the deposited data

Results flagged for a closer look

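In groups of 4 livers a library stood far from the other 3 for 3 members: *Mrpl19* in control livers replicate 3 (11.4 CPM), *Mrpl34* in control livers replicate 4 (25.5 CPM) and *Mrpl57* in senescent livers replicate 3 (21.6 CPM). Of 50 groups tested 3 stood out in this way, and chance gives about 1 in 20.

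The log2 fold change in iMEFs minus that in livers passed the test of the difference for 8 members. It was -1.06 for *Mrps21*, -0.80 for *Mrpl14*, -0.78 for *Mrps34*, -0.71 for *Mrpl54*, -0.56 for *Mrpl41*, 0.48 for *Mrpl47*, 0.47 for *Mrpl1* and 0.42 for *Mrps10*.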

How the results depend on the processing

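At an adjusted p of 0.01, 4 members were higher and 5 lower in senescent iMEFs and 2 differed between the tissues. Over all genes 1445 were then higher and 1940 lower of 13561 in iMEFs. Leaving out 1 library gave 4 to 14 higher and 5 to 17 lower members in iMEFs, and 3 to 11 with a tissue difference. Over all genes it gave 1624 to 2790 higher and 2168 to 3117 lower in iMEFs. The tissue difference was then positive for 520 to 965 and negative for 740 to 1226 of 11693 genes. Without the filter on low counts 4 members differed between the tissues, and 678 genes were positive and 1004 negative of 21263. The summed level of the small subunit genes, senescent over control iMEFs, was 1.05 with the raw library size. Offsets for GC content and length, chosen after seeing the data, gave 13 higher and 12 lower members, of which 12 were among the 19 called without them. The cause of these shifts was not tested. Liver counts were 0 in all alternatives. Over the single genes named, 724 alternative values kept the outcome of the main fit, 122 lost the call and 0 reversed. The 724 include values of the members named in livers, which had no call in the main fit to lose. Of the 122, 23 were lost at the adjusted p of 0.01, where the outcome follows from the main fit. Same-numbered iMEF samples had correlations of deviations of -0.01, -0.05 and -0.17 and same-numbered livers of -0.08 to 0.24. The value of 0.24, of livers with number 4, was the highest of all liver pairs, but not every sample correlated best with its own number. Deviations within groups this small cannot show whether samples of the same number share a batch or culture. With the replicate block 8 members were higher and 11 lower in iMEFs, 0 passed in livers and 5 differed between the tissues. With 3 libraries a group, the smallest change that passed in iMEFs was 0.27 on the log2 scale (*Mrps22*), and *Mrpl57* (-0.33) and *Mrpl51* (-0.30) did not pass. With offsets for GC content and length both *Mrpl57* (-0.45) and *Mrpl51* (-0.38) passed.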
